A study of Mus musculus with 4 samples.

Results

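The acrosome is the secretory vesicle that caps the sperm nucleus and releases its contents when sperm meet the egg coat. The 10 genes described here encode proteins of its matrix and its membrane. They were chosen by name, with earlier results of these data known: Acr, Acrbp, Acrv1, Spaca1, Spaca3, Spaca4, Spaca7, Zpbp, Zpbp2 and Spam1. Each has a row in the deposited table of 50763 genes. RNA with a poly(A) tail was sequenced from spermatocytes of mouse testis that the labels place at pachytene, the meiotic prophase stage at which homologous chromosomes are fully paired. There were 2 libraries labelled wild type (WT) and 2 labelled Hsf5 knockdown. Hsf5 encodes a transcription factor of the testis and belongs to the heat shock factors. The labels name the replicates biological and give no strain, age, number of animals or means of knockdown, and p-values here reflect only how far these libraries spread.

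The acrosome forms from Golgi vesicles in round spermatids, but its genes do not all come on together. Transcripts of Acr, the zymogen of the serine protease acrosin, and of Acrbp, which binds proacrosin and holds it in the granule, are known from pachytene onwards. Transcripts of Acrv1, an acrosomal antigen also called SP-10, and of Spam1, the membrane-anchored hyaluronidase PH-20, are known from round spermatids. The other members were placed in neither class. All 10 lie on autosomes: Zpbp, Zpbp2 and Spaca3 on chromosome 11, Acrbp and Spam1 on chromosome 6, and the rest on chromosomes 4, 7, 8, 9 and 15.

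Libraries held 33287428 to 42479164 counts. Hsf5 stood at 586 and 449 CPM (counts scaled to a common library size, with TMM factors throughout) in WT and at 287 and 238 CPM in the knockdown (log2 fold change -0.98, SE 0.31; edgeR quasi-likelihood test with Benjamini-Hochberg adjustment, adjusted p = 0.0217). The call was lost with library totals as the only scaling (-0.55, adjusted p = 0.115), without WT replicate 1 (-0.79, 0.219) and without WT replicate 2 (-1.13, 0.0725). The labelled cell type was not the only one in these libraries. All 13 spermatid markers (such as Prm1 and Tnp2) were detected in WT, where their summed level was 4370 and 2200 CPM, and 6.9 and 7.97 CPM in the knockdown, in which 4 of the 13 had no count. Sertoli markers, 9 genes, summed to 180 and 443 CPM in WT and 4090 and 4650 CPM in the knockdown. Leydig markers, 6 genes, summed to 105 and 714 CPM in WT and 1230 and 2480 CPM in the knockdown, and spermatogonial markers, 10 genes, to 53.8 and 71.2 CPM in WT and 770 and 687 CPM in the knockdown. No gene of these 3 lists was at 0 in a group. Of 7 markers of leptotene and zygotene, the stages before pachytene, 4 rose and 3 did not pass. They summed to 383 and 303 CPM in WT and 607 and 546 CPM in the knockdown. Of 9 peritubular, endothelial and macrophage markers 6 rose and 3 did not pass. These summed to 17.1 and 23.8 CPM in WT and 145 and 68.8 CPM in the knockdown. Of 13 pachytene markers 7 fell, 4 rose and 2 did not pass, where 33.5% of all tested genes fell and 27.4% rose. Their sum was 12000 and 11800 CPM in WT and 6290 and 4570 CPM in the knockdown. The largest fall in CPM within this sum was that of Ldhc, from 5280 and 4330 to 279 and 188 CPM. The markers that rose were Sycp1, Piwil2, Meiob and Tex101. The part of these differences in the results was not tested, and in bulk RNA fewer cells of a type and less RNA per cell cannot be told apart.

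Upstream sequences of 4 members are shown, 2 with counts left in the knockdown and 2 almost without. They were picked after their counts and CpG dinucleotides were seen, and include the most and the fewest CpGs of any member matched. RefSeq's promoter table (GRCm38.p6, not the build of the counts) matched 9 members by symbol, and Acr was not matched. The 250 bases before the annotated start of 4 members follow, 5′ to 3′, with each CpG in capitals. Acrbp (chr6:125049677-125049926, plus strand) and Zpbp2 (chr11:98550847-98551096, plus strand) kept counts in the knockdown. Acrv1 (chr9:36692970-36693219, plus strand) and Spam1 (chr6:24790938-24791187, plus strand) had at most 3 counts there.
Acrbp: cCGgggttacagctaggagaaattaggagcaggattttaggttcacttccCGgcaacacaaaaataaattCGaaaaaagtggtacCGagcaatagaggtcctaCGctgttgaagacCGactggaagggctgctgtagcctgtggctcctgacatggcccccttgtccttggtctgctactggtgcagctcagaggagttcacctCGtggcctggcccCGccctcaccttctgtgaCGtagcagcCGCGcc
Zpbp2: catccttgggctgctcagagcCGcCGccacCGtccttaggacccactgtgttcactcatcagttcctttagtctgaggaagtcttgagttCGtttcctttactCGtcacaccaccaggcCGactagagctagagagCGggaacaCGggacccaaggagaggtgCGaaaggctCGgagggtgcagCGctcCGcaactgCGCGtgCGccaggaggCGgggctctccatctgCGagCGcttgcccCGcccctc
Acrv1: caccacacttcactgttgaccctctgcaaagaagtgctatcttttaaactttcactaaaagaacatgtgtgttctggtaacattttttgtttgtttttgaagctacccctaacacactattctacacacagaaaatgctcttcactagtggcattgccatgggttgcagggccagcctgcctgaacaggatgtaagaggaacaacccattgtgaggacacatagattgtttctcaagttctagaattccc
Spam1: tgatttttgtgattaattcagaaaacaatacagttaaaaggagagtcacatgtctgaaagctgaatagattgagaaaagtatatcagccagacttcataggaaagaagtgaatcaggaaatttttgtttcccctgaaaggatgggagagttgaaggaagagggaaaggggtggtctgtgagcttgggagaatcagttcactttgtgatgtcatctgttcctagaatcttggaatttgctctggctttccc

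The Zpbp2 stretch holds 19 CpGs and that of Acrbp 11, whereas those of Acrv1 and Spam1 hold 0. The median over the 27025 promoters of the table, taking the first entry of each symbol, was 6. Among the other members, Spaca1 had 13, Zpbp 4, Spaca3 5, Spaca4 5 and Spaca7 1. Divided by the number that base composition alone would give, the CpG ratio was 0.78 for Zpbp2, 0.57 for Acrbp, 0.54 for Spaca1 and 0.29 for Zpbp. It was 0.41 for Spaca3, 0.07 for Spaca7 and 0 for Acrv1 and Spam1, against a median of 0.38 over all promoters. The 4 members that kept counts and the 4 that did not thus overlapped in this ratio through Zpbp and Spaca3, and no test was made.

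Short motifs were searched on both strands of the same 250 bases, as letters and not as sites. Inverted repeats of the heat shock element were found as TTCNNGAA in Acrv1 and Spaca1 (7.1% of all promoters hold it) and as GAANNTTC in Spaca4 (6.78%). The cAMP response element TGACGTCA was in none of the 9 (1.62% of all), and its core TGACG was in Acrbp, Spaca1, Spaca3 and Zpbp2 (17.9%). The variant TGATGTCA, searched because it was seen in the sequences, was in Spaca7 and Spam1 (3.02%). The MYB letters CAACNG were in Acrbp, Acrv1, Spaca1 and Zpbp2 (29.3%), and TAACNG was in Spam1 (19.8%). The RFX letters GTTGCC were in Acrbp (10.5%) and the TATA letters TATAAA in Spaca7 (13%).

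Every member that could be tested was lower in the knockdown, but not to the same depth. Acr, Acrbp, Zpbp, Zpbp2 and Spaca1 kept 2.21% to 24% of their WT level, and Acrv1, Spaca3, Spaca7 and Spam1 kept 0.0432% to 0.0958% of it. This division was made after the values were seen. Of the 10 members 9 passed the filter on low counts, and all 9 fell, where 33.5% of all 23594 tested genes fell (edgeR, adjusted p at most 0.00268 for each; with library totals as the only scaling 6680 of all tested genes fell and 8121 rose, against 7902 and 6467). Acrv1, Spaca3, Spaca7 and Spam1 passed this filter through their WT counts alone. Genes kept in that way could hardly be called higher, so their place among the 9 is no separate support. For all 9, each WT library stood above each knockdown library, as for 43.7% of all tested genes. A change in either direction was called for 60.9% of all tested genes. The median log2 fold change of the 9 was -5.5, beside -0.12 for all tested genes. The 9 calls held under all 11 alternative settings.

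**Figure D1:**
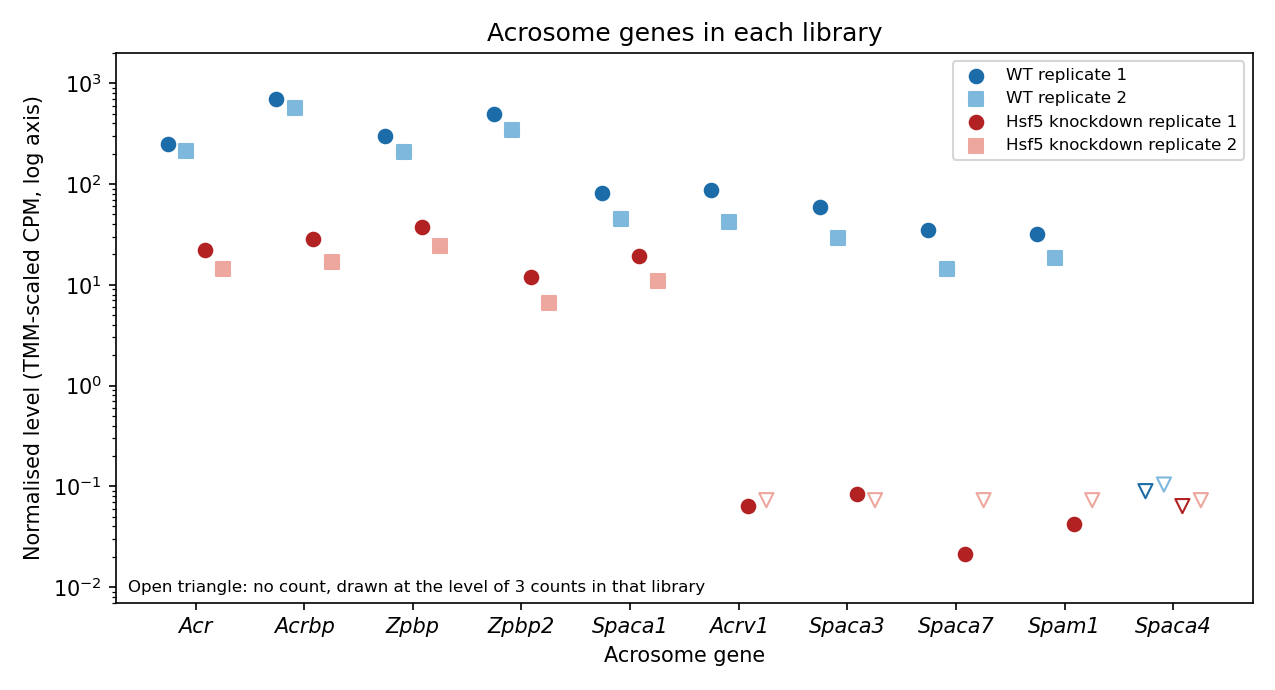
TMM-scaled CPM (log axis) of the 10 acrosome genes in the 2 WT libraries (blue) and the 2 Hsf5 knockdown libraries (red). Circles are replicate 1, squares replicate 2, and open triangles mark a library without a count, drawn at the level of 3 counts; the 5 genes on the left stay at 6.62 CPM or more in the knockdown and the next 4 reach at most 0.0847 CPM.

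Proacrosin and its binding partner, the pachytene-onset pair, were high in WT. Acr stood at 247 and 214 CPM in WT and at 22.2 and 14.3 CPM in the knockdown, a log2 fold change of -3.66 (SE 0.35; edgeR, adjusted p = 4.6e-05, n = 2 per group). Acrbp stood at 706 and 567 CPM in WT and at 28.4 and 17 CPM in the knockdown (-4.81, SE 0.40; edgeR, adjusted p = 2.26e-05). Neither gene's groups overlapped, and in both groups replicate 1 was the higher library. Acrbp was left at a smaller share of its WT level than its partner, and reads of Acrbp per read of Acr were 2.86 and 2.65 in WT and 1.28 and 1.19 after knockdown. This ratio is free of library scaling, and it differed by -1.16 on the log2 scale (two-sided exact permutation test, p = 0.333, the smallest that 2 against 2 libraries allow, in a family of 3 ratios, and 0.333 also after Benjamini-Hochberg adjustment).

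The zona pellucida binding proteins Zpbp and Zpbp2 are paralogs of the acrosomal matrix with roles in acrosome shape. Zpbp was at 297 and 210 CPM in WT and at 37.1 and 24.1 CPM in the knockdown (log2 fold change -3.05, SE 0.36; edgeR, adjusted p = 0.000141). Zpbp2 was at 494 and 348 CPM in WT and at 12 and 6.62 CPM in the knockdown (-5.50, SE 0.44; edgeR, adjusted p = 1.8e-05). Their order in reads turned over. Reads of Zpbp per read of Zpbp2 were 0.602 in each WT library and 3.1 and 3.64 in the knockdown libraries, a difference of 2.48 on the log2 scale (two-sided exact permutation test, p = 0.333, again the smallest possible). The pair ratio was the same to 3 digits in both WT libraries, although the level of each gene was lower in replicate 2.

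Spaca1, a protein of the inner acrosomal membrane that is needed for the acrosome to take its shape, fell least. It had 81.7 and 44.7 CPM in WT and 19.4 and 10.9 CPM in the knockdown (log2 fold change -2.06, SE 0.43; edgeR, adjusted p = 0.00268), which left 24% of the WT mean. The lower WT library, at 44.7 CPM, stood above the higher knockdown library, at 19.4 CPM. Relative to Acr, Spaca1 was more abundant in the knockdown, with 0.331 and 0.209 reads per read of Acr in WT and 0.874 and 0.766 in the knockdown (1.64 on the log2 scale; two-sided exact permutation test, p = 0.333). Spaca1 was chosen for this ratio after its values were seen.

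**Figure D2:**
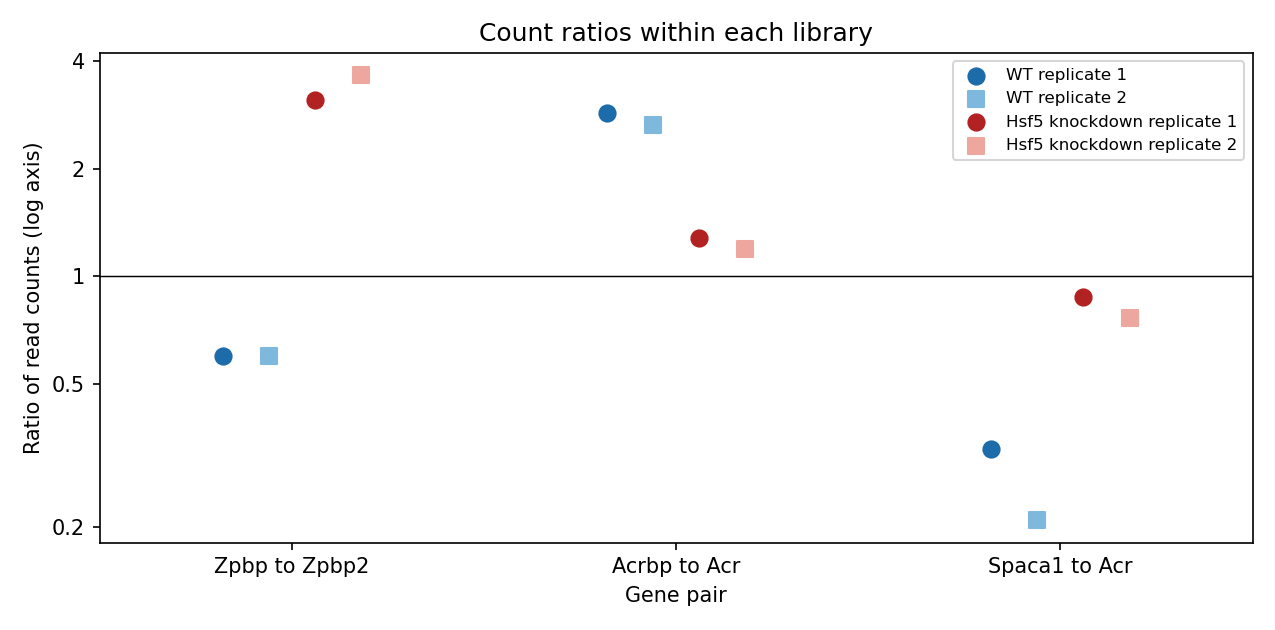
Ratio of read counts within each library (log axis) for 3 gene pairs, with WT in blue, Hsf5 knockdown in red, circles for replicate 1 and squares for replicate 2. Zpbp to Zpbp2 lies at 0.602 in WT and at 3.1 and 3.64 in the knockdown, Acrbp to Acr falls towards 1, and Spaca1 to Acr rises towards 1.

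Levels of different genes were compared as CPM per kilobase of the longest annotated transcript. In WT replicate 1 the order was Acrbp (375), Zpbp2 (313), Acr (164), Zpbp (69.9), Spaca1 (68.3), Spaca3 (62.8), Spaca7 (36.1), Acrv1 (26.6) and Spam1 (15). In WT replicate 2 it was the same, from 301 for Acrbp to 8.78 for Spam1. Zpbp2 and Acr did not overlap between libraries, and neither did Acr and Zpbp. Acrbp and Zpbp2 overlapped, as did each neighbouring pair from Zpbp downwards. The place of Acrv1 depends on the transcript: its longest is a retained intron form, and with the longest protein-coding form it stood at 78.8 and 37.9 CPM per kilobase, above Zpbp in replicate 1.

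In the knockdown the 5 members with counts in every library were closer together than in WT, but they were selected by those counts. The other 4 detected members stood at 0.0895 CPM per kilobase or less there. The 9 detected members as a set were thus spread wider in the knockdown than in WT. Acr, Acrbp and Spaca1 stood at 14.8, 15.1 and 16.2 CPM per kilobase in replicate 1 and at 9.49, 9.04 and 9.13 in replicate 2. Zpbp and Zpbp2 stood at 8.73 and 7.6 in replicate 1 and at 5.67 and 4.2 in replicate 2. The highest of the 5 was 5.49 and 8.05 times the lowest in WT replicates 1 and 2, and 2.13 and 2.26 times in knockdown replicates 1 and 2.

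**Figure D3:**
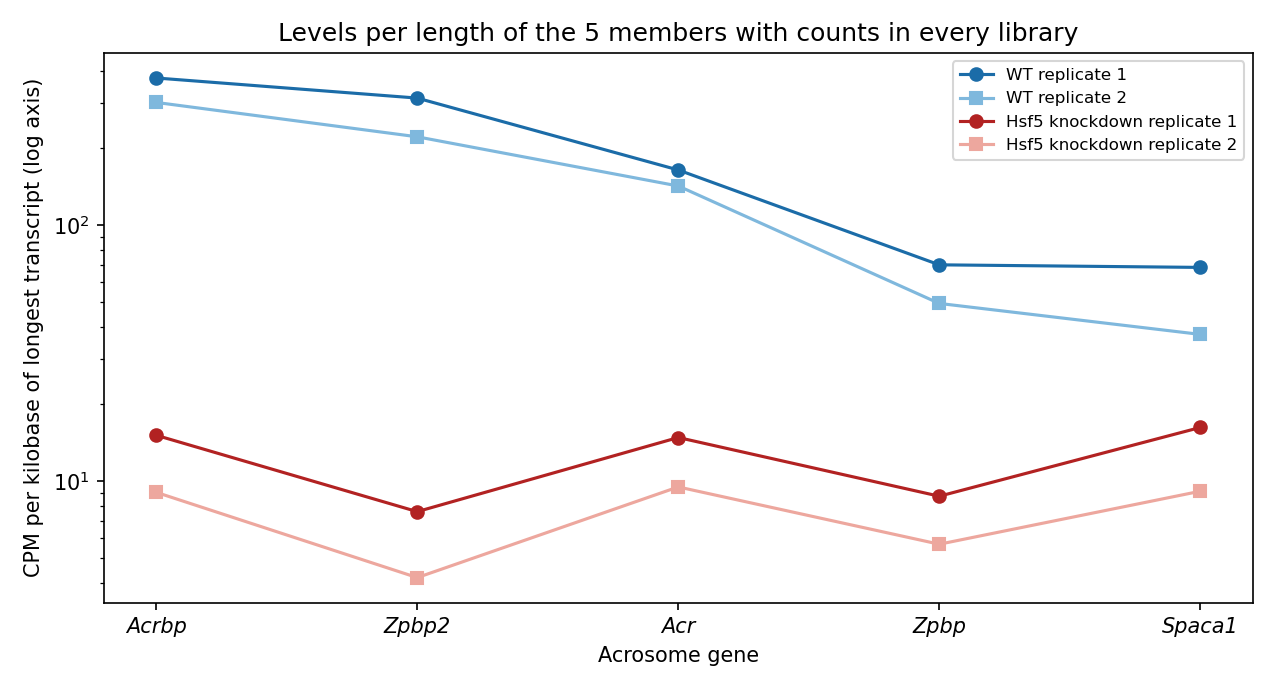
CPM per kilobase of the longest transcript (log axis) of the 5 members with counts in every library, with lines joining the values of a library. The WT lines (blue) span 5.49 and 8.05 times from highest to lowest gene, the knockdown lines (red) 2.13 and 2.26 times. The 5 were selected by their counts, and the 4 detected members left out stood at 0.0895 or less in the knockdown.

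The other 4 detected members were close to absent from the knockdown libraries. Acrv1 had 2912 and 1200 counts in WT (86.8 and 41.7 CPM) and 3 and 0 counts in the knockdown. Spaca3, a lysozyme-like acrosomal protein, had 1995 and 834 counts in WT (59.5 and 29 CPM) and 4 and 0 in the knockdown. Spaca7, a matrix protein linked to dispersal of the cumulus cells around the egg, had 1170 and 408 counts (34.9 and 14.2 CPM) in WT and 1 and 0 in the knockdown. The few knockdown counts of these genes, like those of the next, were all in replicate 1. Among all tested genes, 7.48% fell and had no count in knockdown replicate 2.

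Spam1 had 1061 and 532 counts in WT (31.6 and 18.5 CPM) and 2 and 0 in the knockdown. Together the 4 genes had 7138 and 2974 counts in WT and 10 and 0 in the knockdown. At the rate of knockdown replicate 1, replicate 2 would have held 8.74. In replicate 2 a count of 0 allows up to 3 counts, or 0.0727 CPM, for each gene. Falls to at most 4 counts over both knockdown libraries were seen for 9.08% of all tested genes. All 4 passed the test (edgeR, adjusted p from 1.46e-05 to 2.76e-05). They were grouped by their knockdown counts after these were seen, so their passing is no separate support. Fitted log2 fold changes ran from -9.85 to -10.76. Without knockdown replicate 1, which leaves no count and a value that depends on the prior count, that of Acrv1 was -14.08. Ratios of group levels are therefore given with exact 95% Poisson intervals on the knockdown count. Acrv1 was 1950-fold lower (666 to 9440), Spam1 1130-fold lower (313 to 9340), Spaca3 1000-fold lower (392 to 3690) and Spaca7 2240-fold lower (402 to 88500). The 4 intervals overlap, so no order among these genes can be given. They cover counting error only.

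The early against late question was read within each library, where scaling has no part. Reads of the spermatid-onset genes Acrv1 and Spam1 came to 12.4% and 7.71% of those of the pachytene-onset genes Acr and Acrbp in the WT libraries. In knockdown replicate 1 the share was 0.209% (5 of 2387 reads for the early pair), and in replicate 2 it was 0 against 1291 reads, which allows up to 0.232%. The early pair itself summed to 952 and 781 CPM in WT and to 50.6 and 31.3 CPM in the knockdown. Of the 13 spermatid markers 10 kept under 0.1% of their WT level. Oaz3 kept 0.523%, Gapdhs 1.51% and Tssk6 5.05%, the last above the 3.57% of the early gene Acrbp.

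The WT libraries also differed from each other in the levels of the members. All 9 detected members were lower in WT replicate 2, by log2 ratios (0.5 CPM added) of -0.20 for Acr, -0.32 for Acrbp and -0.50 for both Zpbp and Zpbp2. The ratio was -0.76 for Spam1, -1.02 for Spaca3, -1.05 for Acrv1 and -1.27 for Spaca7. The 13 spermatid markers, also lower in replicate 2 throughout, had a median of -1.01 (-0.57 to -1.41). The 13 pachytene markers had a median of -0.15 (0.53 to -0.75), and 8 of them were lower in replicate 2. The share of all tested genes lower in WT replicate 2 was not computed, so these counts do not set the members apart from other genes. Spaca1, at -0.86, lay within the range of the spermatid markers here, although it kept more of its level in the knockdown than Acr or Acrbp. No replicates stand behind these ratios, and they share the WT libraries with the knockdown comparison.

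**Figure D4:**
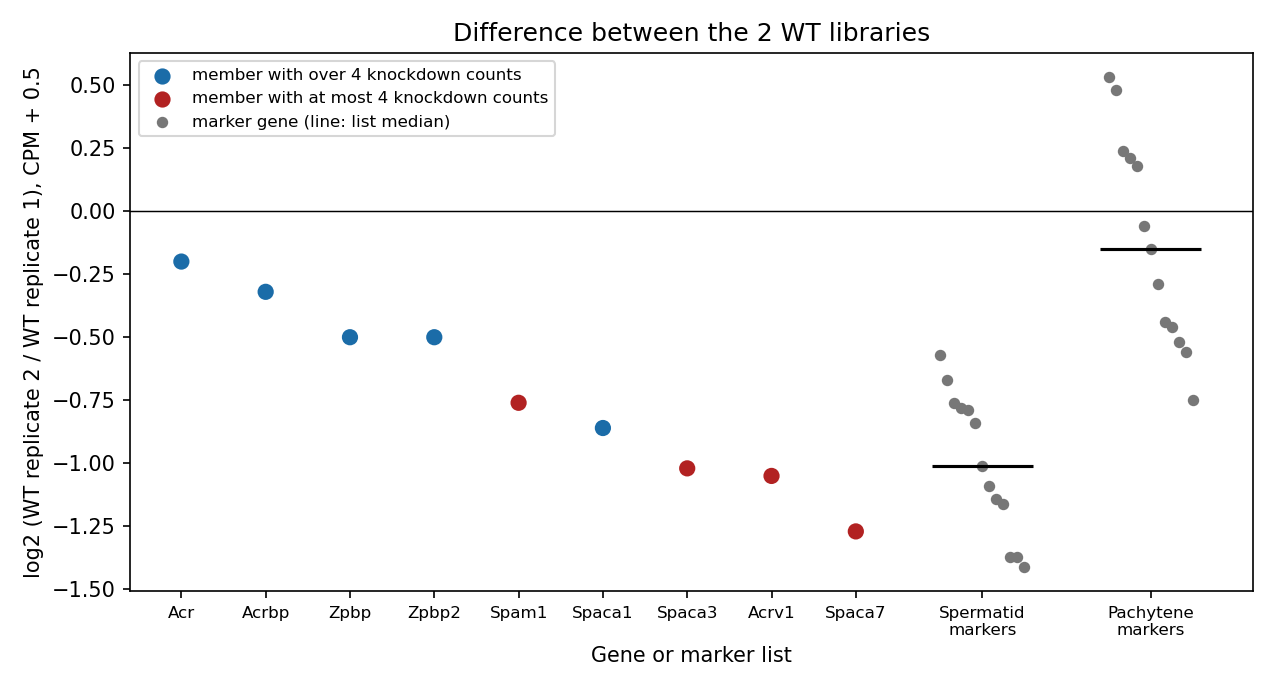
log2 ratio of WT replicate 2 to WT replicate 1 (CPM with 0.5 added) for the 9 detected members and for 2 marker lists, whose medians are drawn as lines. Acr, Acrbp, Zpbp and Zpbp2 lie from -0.20 to -0.50, above all spermatid markers, and the other 5 members lie within the range of the spermatid markers.

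The knockdown libraries differed too. All 5 members with counts in both were lower in knockdown replicate 2, with log2 ratios of replicate 2 to replicate 1 from -0.61 (Zpbp) to -0.81 (Zpbp2). The share of all tested genes lower in knockdown replicate 2 was not computed, so this direction cannot be called particular to the members. Over the same libraries the summed pachytene markers went from 6290 to 4570 CPM and the summed Leydig markers from 1230 to 2480 CPM. Within the pachytene list Tex101 went from 1570 to 636 CPM. Summed Sertoli markers went from 4090 to 4650 CPM and summed spermatogonial markers from 770 to 687 CPM. The part of these differences in the member levels was not tested.

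Spaca4, a membrane-anchored protein of the Ly6/uPAR type known for sperm binding to the zona pellucida, had no count in any of the 4 libraries. That allows up to 0.0635 to 0.104 CPM per library for counting error. RefSeq's GRCm38 annotation places Spaca4 inside the span of Fam83e, which had 1105 and 617 counts in WT and 20 and 10 in the knockdown. This is an overlap of spans: in GENCODE M21 no exon of another gene overlaps those of Spaca4. How reads in overlapping genes were counted is not given in the sources used here, and the 0 cannot be read as absence of the transcript. In GENCODE M21, exons of Acrbp overlap those of 4930557K07Rik on the other strand, which had 16 to 55 counts per library, and those of Gm44597 on the same strand. Exons of Zpbp overlap Spata48 over 223 bases and those of Spaca7 overlap D630011A20Rik over 132 bases, both on the other strand. For Acrbp the larger overlap covered 975 of 3277 exonic bases. Gm44597, Spata48 and D630011A20Rik had no row under these names among the deposited counts, so their levels are not known here.

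Genes whose levels over the 4 libraries were nearest to Acr and Acrv1 were found by Euclidean distance of log2 values (0.5 CPM added) centred on the WT mean, among 11658 genes with a mean of at least 5 CPM. Nearest to Acr were Xrra1 (distance 0.082), Immp2l (0.149) and Fam83a (0.152). Xrra1 stood at 332 and 294 CPM in WT and 29.7 and 18.6 CPM in the knockdown. Nearest to Acrv1 were Cabs1 (0.127), Dusp13b (0.144) and Plcz1 (0.176), the last the sperm phospholipase that starts calcium signals in the egg. Of these 3, Cabs1 and Plcz1 had no count in the knockdown, so the likeness rests on the WT levels and the added 0.5 CPM.

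Transcripts of other acrosomal proteins fell with the members, where 33.5% of all tested genes fell and 27.4% rose. This list and those below were chosen with earlier results of these data known. Of 21 genes of further acrosomal or sperm surface contents 20 fell and Spaca6 did not pass (log2 fold change -1.38, SE 0.55; edgeR, adjusted p = 0.0544), with a median of -5.64. Of those that fell, 5 had no knockdown count and passed the filter on low counts through WT alone. Over the 11 alternatives 19 to 21 fell: Spaca6 passed in 6 (adjusted p from 0.00205 to 0.292 over all), and Cd46 was lost with library totals only (-1.5, edgeR, adjusted p = 0.0576) and without knockdown replicate 1 (-1.62, 0.0815). Adam3, needed for sperm to pass into the oviduct and bind the zona, stood at 1230 and 1150 CPM in WT against 11.4 and 8.41 CPM after knockdown. Prss21, a membrane serine protease, stood at 132 and 91 CPM against 0.974 and 0.848 CPM. Hyal5, the neighbouring hyaluronidase and paralog of Spam1, went from 42.8 and 23.4 CPM to no count, at least 997-fold lower taking 3 counts over the knockdown group as the floor, and Zp3r, a matrix protein also called sp56, was at least 1510-fold lower. The lysozyme-like paralogs of Spaca3 fell as well. Lyzl4 was at least 583-fold lower, and Lyzl6 went from 44.1 and 26.4 CPM to 0.318 and 0.606 CPM. The treatment of reads matching several places is not given in the sources used here, and counts of paralogs carry that doubt.

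Most genes of the list for building the acrosome fell. Of 24 genes 23 were tested: 17 fell, 2 rose and 4 did not pass, with a median of -1.69. Of those that fell, 2 had no knockdown count and passed the filter through WT alone. Of all tested genes 33.5% fell and 27.4% rose. Actl7a, an actin-related protein of the sperm head, stood at 86.5 and 61.8 CPM in WT against 0 and 0.145 CPM after knockdown. For Fam170b, an acrosomal protein, the values were 67.3 and 49.6 CPM against 0.0847 and 0.218 CPM. Dpy19l2, which anchors the acrosome to the nucleus, fell (-4.39, SE 0.32), as did Spata16 (-5.14, SE 0.38), a Golgi protein whose loss gives round-headed sperm. Gopc (-1.49, SE 0.29), Golga3 (-1.69, SE 0.31), Tmf1 (-2.24, SE 0.29) and Atg7 (-2.09, SE 0.32) fell as well. Pick1 (-0.72), Smap2 (-0.69), Csnk2a2 (-0.50) and Vps13b (-0.12) did not pass, but Pick1 passed in 4 and Smap2 in 3 of the 11 alternatives, and over these the number that fell ran from 15 (when WT replicate 1 or 2 was left out) to 19. Vps54, of a tethering complex of the Golgi, rose from 35.4 and 40.6 CPM to 85.7 and 74.2 CPM, which did not pass when WT replicate 1 was left out (0.96; edgeR, adjusted p = 0.126). Rab3a, a small GTPase of secretion placed in this list, rose from 0.417 and 1.95 CPM to 10.3 and 12.6 CPM. Summed Sertoli, Leydig and spermatogonial markers were higher in the same knockdown libraries, and their part in these rises was not tested.

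Of 12 genes that control acrosomal exocytosis 10 were tested, and 4 fell, 4 rose and 2 did not pass, with a median of -0.90. These shares are near those of all tested genes, of which 33.5% fell and 27.4% rose. The phospholipase genes Plcd4 (log2 fold change -5.53, SE 0.34) and Plcz1 (at least 1780-fold lower) fell, as did Rab27a (-2.87, SE 0.39) and Trpm8 (-3.78, SE 0.91). Those that rose, Stx1a (3.96, SE 0.53), Nsf (1.82, SE 0.38), Rims1 (2.53, SE 0.58) and Cplx2 (no count in WT, at most 0.678 CPM in the knockdown), are known from vesicle fusion in neurons and other secretory cells. The Sertoli, Leydig and spermatogonial marker sums given above were higher in the same libraries, and their part in these rises was not tested.

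**Figure D5:**
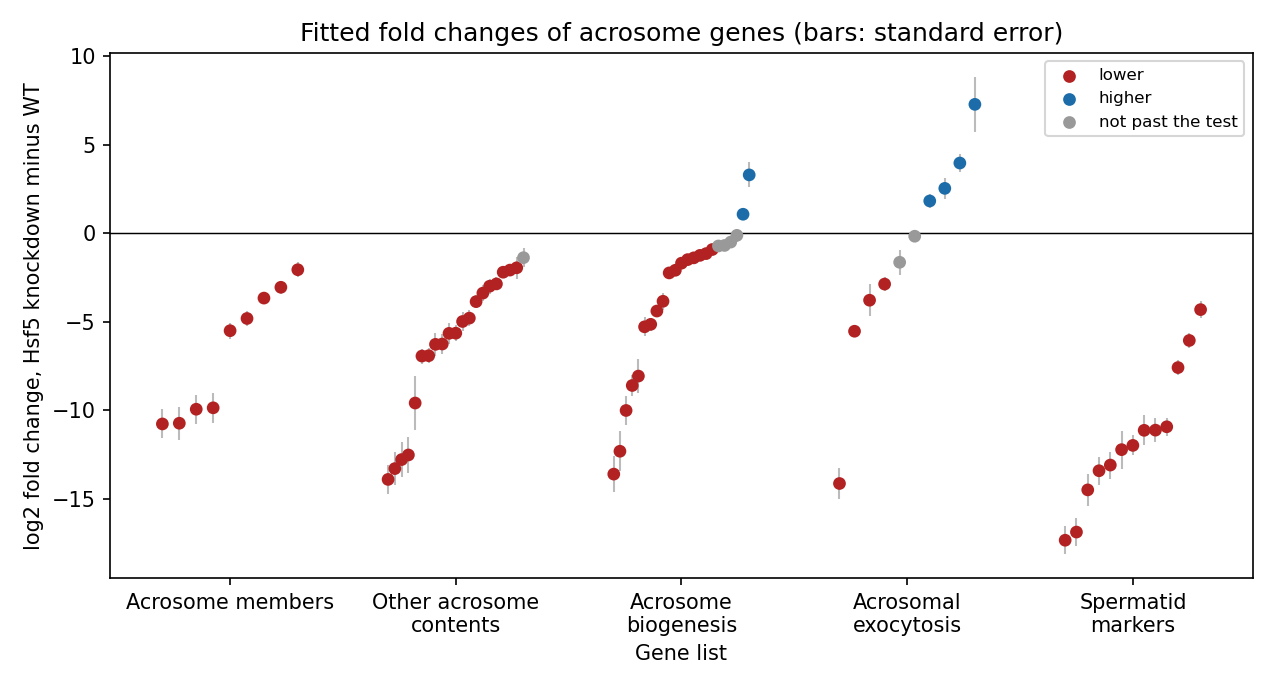
log2 fold change (Hsf5 knockdown minus WT, edgeR, bars are standard errors) of the tested genes of each list, coloured by call. The 9 tested members and 13 spermatid markers were all lower, 20 of 21 further contents were lower, and the lists for biogenesis and exocytosis hold genes on both sides of 0; values of genes without a knockdown count rest on the prior count.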

How the data were processed

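Raw read counts per gene for 4 libraries were deposited by the authors as a single table. The build was mm39 and the tools included featureCounts 1.5.3, HISAT2 2.2.1, DESeq2 1.46.0 and Trim Galore 0.6.10, per the submitters' processing notes. Annotation, strand setting and handling of multi-mapping reads were not given in the sources used here.

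The analysis used edgeR 4.0.16 (R 4.3.3). Its filterByExpr kept 23594 of 36809 genes with a count, TMM factors were 0.854 and 0.865 (WT) and 1.11 and 1.22 (knockdown), and the quasi-likelihood F test was adjusted over all tested genes (Benjamini-Hochberg, 0.05, no minimum fold). Standard errors are the log2 fold change over the square root of F. The test was checked on simulated counts. Transcript lengths came from GENCODE M21. Members and lists were chosen with earlier results of these data known. Named besides the members were Hsf5, paralogs and the 3 nearest genes to Acr and Acrv1. So were up to 4 genes of smallest p per acrosome list, with those moving the other way. Gopc, Golga3, Tmf1, Atg7, Cd46, Oaz3, Gapdhs, Tssk6, Trpm8 and the genes not past the test were added after their values were seen. Ldhc and the pachytene markers that rose were added likewise. Alternatives were DESeq2 size factors, library totals, scaling on synaptonemal complex and cohesin genes, the DESeq2 1.42.0 Wald test, a mean of at least 1 CPM, no filter, a replicate block, and leaving out each library.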

Additional observations from a re-analysis of the deposited data

How the results depend on the processing

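All 9 members with counts were lower and past the test under each of the 11 alternatives (99 results, adjusted p at most 0.00945), with median log2 fold changes from -5.91 to -5.08, while the median of all tested genes ran from -0.27 to 0.31. The replicate block also gave 9 lower members. Replicate 1 minus 2 correlated at 0.32 over genes between the groups, but with only 2 pairs and no label that ties the numbers, they were not taken to pair the libraries. With the block 8351 genes were lower and 7016 higher, and Hsf5 changed by -0.97. The Hsf5 call changed in 3 alternatives: it was -0.55 and not past the test with library totals only, and from -1.13 to -0.79 when a library was left out, with the call lost when WT replicate 1 or 2 was left out. Other calls changed for Spaca6 (6 alternatives), Pick1 (4), Agfg1 and Smap2 (3 each), Cd46 (2) and Gba2, Hook1 and Vps54 (1 each). Of the acrosome biogenesis genes 1 to 2 rose when a library was left out. The difference between the WT libraries, a median of -0.76 over the 9 members, was -0.73 with DESeq2 size factors, -0.74 with library totals and -0.7 under synaptonemal and cohesin scaling, with the same sign for each of the 9. The share of late to early reads does not depend on scaling; its alternatives with filters, other tests and left-out libraries give no other value. Depth limits Acrv1, Spaca3, Spaca7 and Spam1, whose knockdown levels rest on at most 4 counts.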
